A study of Mus musculus with 16 samples.

Results

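The 9 genes described here encode natural killer (NK) cell receptors, the adaptors that carry their signals and the transcription factor of innate-like T cells. They were chosen by name (Klrd1, Klrk1, Klrc1, Klrb1c, Klrg1, Klra7, Zbtb16, Tyrobp and Fcer1g) from the 56748 genes of the deposited tables, with no threshold on their measured values. RNA-Seq was performed on memory CD4+ T cells, sorted from the spleen as CD4+CD25low/-CD62L-CD44high, of mice that lacked HP1α or HP1γ, which are adaptor proteins of heterochromatin, and of their WT littermates. There were 4 samples each of HP1α KO, HP1α WT, HP1γ KO and HP1γ WT, from sex-matched littermates between 6 and 12 weeks of age on a mixed 129/Sv and C57BL/6 background. In the HP1α line the floxed Hp1a sequence had been excised by CMV-cre, which is active in every tissue, and KO and WT came from intercrossed heterozygotes. In the HP1γ line all mice were homozygous for the floxed Hp1g allele and only the KO carried Cd4-cre, which is active in the T cell lineage, so that Cre activity and HP1γ deficiency cannot be told apart in this line. Nothing in the labels says that replicates came from separate animals, and p-values then measure only the spread between these samples.

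NK cells weigh activating against inhibitory receptors, and a small fraction of T cells uses the same receptors. CD94, encoded by Klrd1, pairs with NKG2A, encoded by Klrc1, to form an inhibitory receptor for Qa-1, whereas NKG2D, encoded by Klrk1, is an activating receptor for stress-induced ligands. Invariant NKT cells, which recognise lipids on CD1d through a nearly fixed T cell receptor, depend on PLZF, the product of Zbtb16, and can carry CD4, so that part of them can enter a memory CD4+ T cell gate. DAP12, encoded by Tyrobp, and the Fc receptor γ chain, encoded by Fcer1g, are signalling adaptors of NK receptors that are also abundant in myeloid cells.

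Estimated counts summed to between 26694045 and 40199637 per sample. Values of single genes are CPM (counts scaled to library size) after TMM normalization over the 16 samples, and levels of different genes are compared in TPM, which accounts for gene length. Cbx3, which encodes HP1γ, was at 45.9 to 50.2 CPM in HP1γ KO and at 73.4 to 92.4 CPM in HP1γ WT, and Cbx5, which encodes HP1α, was at 23.03 to 29.0 CPM in HP1α KO and at 33.8 to 54.0 CPM in HP1α WT. Cbx5 was similarly low in HP1γ KO, at 20.1 to 29.8 CPM, beside 27.1 to 37.3 CPM in HP1γ WT. Cd4 was at 1015 to 1369 CPM and Cd8a at 0.541 to 7.39 CPM in all samples. Of the 8 NK cell markers, Ncr1 stayed between 0.0648 and 0.379 CPM. Klra8 was at 0 in 7 samples and Klra4 at 0 in 8. The other NK cell markers were detected in every sample. Klre1 was at 0.842 to 2.83 CPM, Gzma at 1.15 to 13.3 CPM and Prf1 at 6.53 to 13.3 CPM. Itga2 was at 10.4 to 20.9 CPM and Eomes at 11.6 to 31.3 CPM. RNA of other cells was present. The 14 markers of monocytes and macrophages summed to 115 to 248 CPM, the 5 of dendritic cells to 16.7 to 150.1 CPM and the 8 of B cells to 265 to 739 CPM. In bulk samples, fewer cells of a type and less RNA per cell cannot be told apart.

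Of the 9 genes, 8 were readily detected. In TPM, averaged over the 16 samples, the order was Tyrobp (43.7), Klrb1c (36.6), Klrk1 (35.8), Klrc1 (27.2), Zbtb16 (22.96), Klrd1 (18.1), Fcer1g (15.996), Klrg1 (12.8) and Klra7 (0.421). Neighbours in this order were mostly not separated. Tyrobp exceeded Klrb1c in 10 of 16 samples and Klrb1c exceeded Klrk1 in 7 of 16, whereas Klrg1 exceeded Klra7 in all 16. Klra7, which encodes the inhibitory receptor Ly49G, had 1 to 23.3 estimated counts per sample and did not pass the filter on low counts in any comparison, so that 8 of the 9 genes were tested each time. Over the 16 samples, the SD was largest relative to the mean for Tyrobp among the 8 tested genes (43.7 ± 30.3 TPM, SD, n = 16) and the range was widest for it as well, from 19.3 to 146 TPM.

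All 6 receptor genes lie on chromosome 6 of GRCm39, 5 of them in the NK gene complex. Klrd1 (ENSMUSG00000030165, plus strand, 129568677 to 129575738), Klrk1 (ENSMUSG00000030149, minus strand, 129587286 to 129600827) and Klrc1 (ENSMUSG00000030167, minus strand, 129642978 to 129655936) are consecutive among the 9 genes. Klrb1c (ENSMUSG00000030325, minus strand) lies before them at 128755448 to 128766178, and Klra7 (ENSMUSG00000067599, minus strand) after them at 130195566 to 130210370. Klrg1 (ENSMUSG00000030114, minus strand) is apart, at 122246981 to 122259914. Zbtb16 (ENSMUSG00000066687, minus strand) is on chromosome 9 at 48563141 to 48748664. Reads of some of these genes can be split with close copies. Klrc1 shares at least 150 nt at 98% identity or more with Klrc2, and Klra7 with Gm66837, so their counts are uncertain. Klrb1c shares such a stretch with 5 genes at 90% but with 0 at 98%.

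**Figure D1:**
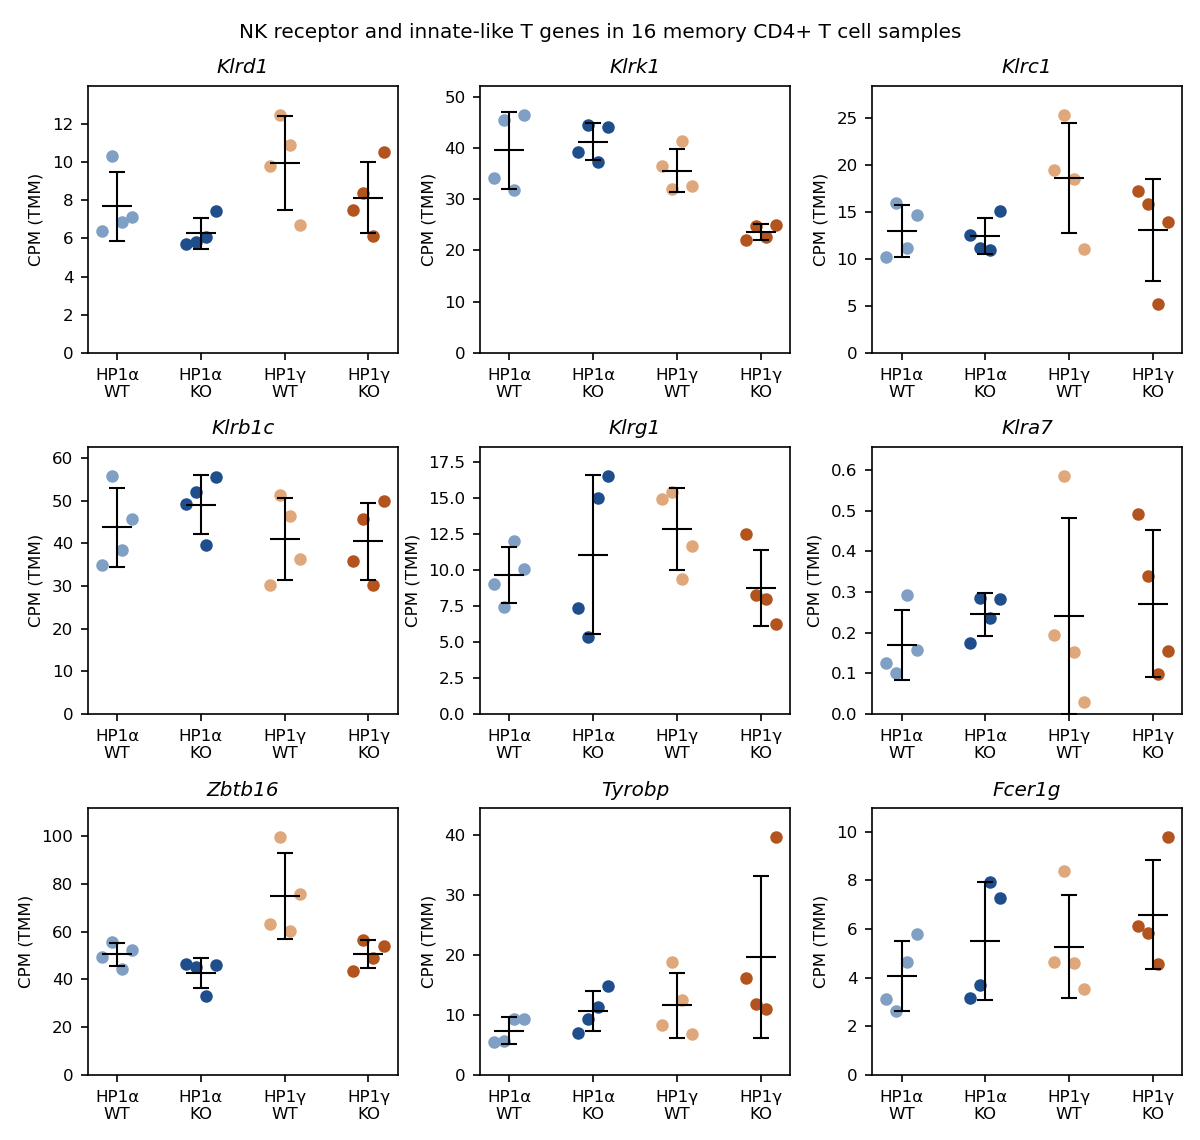
CPM (linear axes that start at 0) of the 9 genes in each of the 16 samples, with 4 samples per group. Points are samples and black bars are the mean and SD, and Klrk1 in HP1γ KO (22.1 to 25.0 CPM) lies below all other samples.

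The effect of HP1γ loss was examined first. No member met both thresholds of a differentially expressed gene (DEG), which were 0.05 for the adjusted p and 1 for the size of the log2 fold change, in edgeR or DESeq2, where 0.234% of the 14975 genes tested did in edgeR. Klrk1 was the only member with an adjusted p under 0.05 in edgeR, against 0.327% of all genes. Its values were 22.1, 24.8, 22.6 and 25.0 CPM in HP1γ KO and 36.4, 32.0, 41.2 and 32.6 CPM in HP1γ WT. All KO samples were below all WT samples, and the KO samples were close to each other. KO averaged 23.6 ± 1.49 CPM and WT 35.6 ± 4.26 CPM (SD, n = 4 each), and Klrk1 fell by 0.58 on the log2 scale (SE 0.0965, adjusted p = 0.0385, edgeR's quasi-likelihood test). The direction held with each sample left out (-0.63 to -0.50), but the call was kept in 1 of 8 such fits, the one without HP1γ WT replicate 2, with adjusted p between 0.0493 and 0.147. Of 10 alternative settings with no sample left out, 7 kept the call. It was lost in limma on log2(TPM + 1), with an adjusted p of 0.142, and on log2(TPM + 0.1). A further setting that lost it, a fit of the counts, is given in the closing section.

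Zbtb16 was the other member whose CPM did not overlap between HP1γ KO and HP1γ WT. PLZF drives the innate-like programme of NKT cells. Zbtb16 was measured at 43.3, 56.3, 48.9 and 53.8 CPM in HP1γ KO and at 63.1, 99.7, 60.3 and 75.7 CPM in HP1γ WT. The highest KO sample was below the lowest WT sample, and HP1γ WT replicate 2 stood above the others. In TPM the groups overlapped, with 25.3 TPM in KO replicate 2 and 24.3 TPM in WT replicate 1. The log2 fold change was -0.55 (SE 0.152) and did not pass the adjustment in edgeR (adjusted p = 0.227), whereas DESeq2 gave an adjusted p of 0.0293. Groups did not overlap for 2 of the 9 members, beside 7.1% of the genes tested.

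The remaining receptors overlapped between HP1γ KO and HP1γ WT. KLRG1 is an inhibitory receptor of terminally differentiated lymphocytes. Klrg1 was at 12.5, 8.23, 7.998 and 6.23 CPM in KO and at 14.9, 15.4, 9.36 and 11.7 CPM in WT, so that 3 KO samples lay below all WT samples (log2 fold change -0.55, SE 0.220, adjusted p = 0.384 in the same edgeR test). Klrc1 was at 17.3, 15.8, 5.19 and 13.9 CPM in KO and at 19.5, 25.4, 18.6 and 11.1 CPM in WT. Its lowest value belonged to KO replicate 3, and the difference of -0.50 had a 95% interval of -1.26 to 0.25 on the log2 scale. Klrd1 had a log2 fold change of -0.28 (95% interval -0.75 to 0.19). Klrb1c, which encodes the activating receptor NK1.1 in strains that carry that form, was at 30.3 to 49.9 CPM in KO and at 30.1 to 51.2 CPM in WT, nearly the same range (log2 fold change -0.01, 95% interval -0.43 to 0.41).

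The adaptor genes had higher means in HP1γ KO, with overlapping groups. Tyrobp was at 16.1, 11.8, 11.1 and 39.8 CPM in KO and at 8.26, 18.8, 12.5 and 6.80 CPM in WT. One KO sample, replicate 4, carried most of the difference. The log2 fold change of 0.78 (SE 0.436, adjusted p = 0.506, edgeR's quasi-likelihood test) ranged from 0.17 to 1.11 with each sample left out. Fcer1g was at 6.14, 5.85, 4.57 and 9.80 CPM in KO and at 4.63, 8.38, 4.59 and 3.52 CPM in WT (log2 fold change 0.33, SE 0.296, adjusted p = 0.690 in that test). In KO replicate 4, where both adaptors were highest, the 5 dendritic cell markers summed to 150.1 CPM, of which Siglech, a gene of plasmacytoid dendritic cells, gave 110 CPM. The part of these cells in the result was not tested.

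Over the 8 tested members, the median log2 fold change in HP1γ KO was -0.39, beside 0.00050 over all genes tested, and 3 members (Klrk1, Zbtb16 and Klrg1) were lower at an unadjusted p under 0.05, a level that 11.9% of all genes reached in either direction. Among the 8 NK cell markers, summed CPM was 42.2 to 51.8 in HP1γ KO and 50.3 to 65.6 in HP1γ WT. Of these, 5 could be tested, 0 passed the adjustment and 1, Eomes, was lower at an unadjusted p under 0.05. Eomes was at 13.4 to 24.4 CPM in KO and 21.1 to 31.3 CPM in WT. In the same order, Itga2 was at 10.4 to 20.9 and 15.4 to 17.7 CPM. Prf1 was at 6.53 to 11.6 and 8.62 to 12.02 CPM. For Ncr1, Klre1 and Gzma the lowest value was in WT. Ncr1 was at 0.0653 to 0.379 and 0.0648 to 0.153 CPM. Klre1 was at 0.881 to 2.72 and 0.842 to 2.83 CPM, and Gzma at 2.45 to 5.38 and 1.72 to 3.54 CPM. Whether the number of NK cells differed was not tested. The summed markers of red blood cells and platelets also differed in range, 57.7 to 741 CPM in KO and 31.6 to 326 CPM in WT. Their part in the differences of Klrk1 and Zbtb16 was not tested. The 2 CD8 T cell markers summed to 7.65 to 18.5 CPM in KO and 5.74 to 10.4 CPM in WT, and their part was not tested either.

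Loss of HP1α gave no call among the members. In HP1α KO against HP1α WT, 0 of 8 tested members passed an adjusted p under 0.05 in edgeR, 0 had an unadjusted p under 0.05 and 0 passed in DESeq2. Over all 14881 genes tested the share called was 0% by either rule, and 635 genes had an unadjusted p under 0.05. Klrk1 was at 39.2, 44.5, 37.2 and 44.0 CPM in KO and at 34.2, 45.5, 31.7 and 46.5 CPM in WT. The KO samples lay within the range of WT (log2 fold change 0.06, 95% interval -0.23 to 0.35). Zbtb16 was at 46.3, 45.1, 33.2 and 46.0 CPM in KO and at 49.3, 55.7, 44.4 and 52.5 CPM in WT. Only KO replicate 3 was below every WT sample (log2 fold change -0.24, 95% interval -0.50 to 0.01).

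Among the other members in the HP1α line, Klrg1 split the KO samples. It was at 7.35, 5.37, 15.002 and 16.6 CPM in KO and at 8.997, 7.45, 12.04 and 10.1 CPM in WT, so that 2 KO samples lay below and 2 above all WT samples (log2 fold change 0.20, 95% interval -0.51 to 0.92). Klrd1 was at 5.70, 5.82, 6.09 and 7.44 CPM in KO and at 6.40, 10.3, 6.86 and 7.10 CPM in WT, with 3 of the KO samples below WT (log2 fold change -0.30, 95% interval -0.67 to 0.07). Tyrobp was at 7.03, 9.35, 11.4 and 14.9 CPM in KO and at 5.44, 5.59, 9.36 and 9.28 CPM in WT (log2 fold change 0.53, 95% interval -0.04 to 1.09). Fcer1g followed with 0.45 (95% interval -0.31 to 1.20) on the log2 scale. Klrc1 and Klrb1c had log2 fold changes of -0.06 and 0.16. The share of all genes whose groups did not overlap was 2.96%, and it was 0 of 9 for the members.

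**Figure D2:**
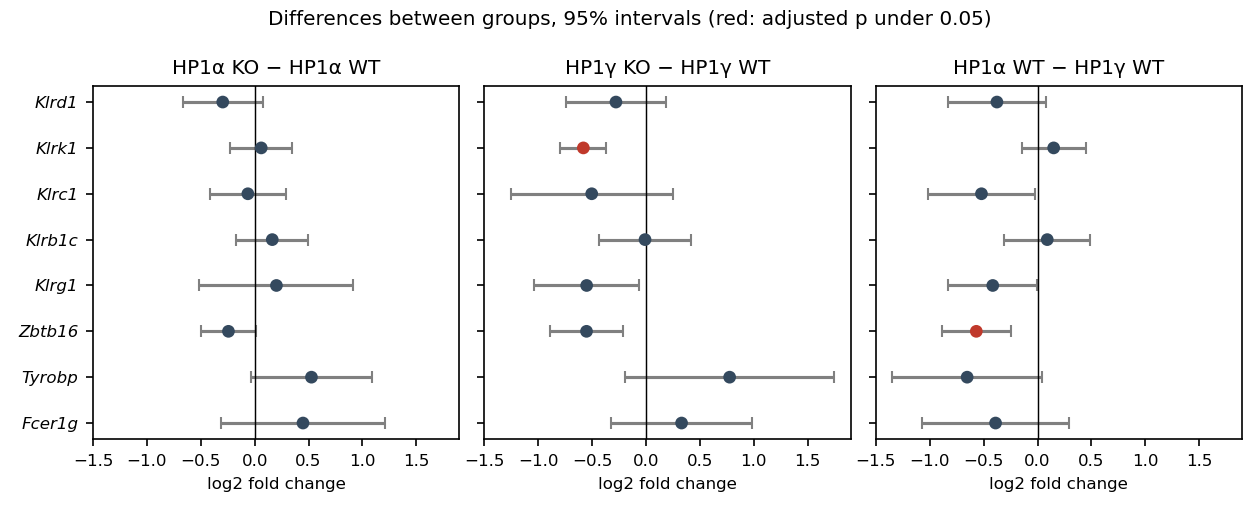
Log2 fold changes of the 8 tested members in 3 comparisons, with 95% intervals from edgeR. Red points have an adjusted p under 0.05, which are Klrk1 in HP1γ KO against WT (-0.58) and Zbtb16 in HP1α WT against HP1γ WT (-0.57).

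WT mice of the 2 lines were compared as well, since neither group lacks an HP1 protein. All WT mice of the HP1γ line were homozygous for a floxed allele, so line, allele and any difference in background cannot be told apart. Of all 14804 genes tested, 1.9% were DEG and 12.8% passed an adjusted p under 0.05. Among the members 0 were DEG and 1 of 8, Zbtb16, passed the adjusted p, a share near that of all genes. Zbtb16 was lower in HP1α WT (50.5 ± 4.82 CPM, SD, n = 4) than in HP1γ WT (74.7 ± 17.9 CPM, SD, n = 4), with no overlap (log2 fold change -0.57, SE 0.146, adjusted p = 0.0316 in edgeR's quasi-likelihood test). The call was kept in 2 of 8 fits with a sample left out, those without HP1γ WT replicate 1 or 3, with log2 fold changes between -0.66 and -0.40. Of 10 alternative settings with no sample left out, 8 kept the call. It was lost in limma on log2(TPM + 1), with an adjusted p of 0.0655, and on log2(TPM + 0.1). The HP1γ WT samples also entered the comparison with HP1γ KO. The differences of Zbtb16, and of every other gene, in both comparisons therefore share those 4 samples and are not separate results.

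Klrc1 and Klrg1 were also lower in HP1α WT at an unadjusted p only, a level that 3 of 8 members and 29.9% of all genes reached. Klrc1 averaged 13.0 ± 2.76 CPM (SD, n = 4) in HP1α WT and 18.6 ± 5.86 CPM (SD, n = 4) in HP1γ WT (adjusted p = 0.151, edgeR), and passed without HP1γ WT replicate 4 (log2 fold change -0.70, adjusted p = 0.0293). Klrg1 averaged 9.65 ± 1.93 CPM and 12.8 ± 2.86 CPM (SD, n = 4 each, adjusted p = 0.163 in edgeR). Klrk1 and Klrb1c did not follow, with log2 fold changes of 0.15 (95% interval -0.15 to 0.45) and 0.09 (95% interval -0.31 to 0.49). Klrd1 had -0.38 (95% interval -0.83 to 0.07). The adaptor genes were measured at 5.44 to 9.36 CPM in HP1α WT and 6.80 to 18.8 CPM in HP1γ WT for Tyrobp (log2 fold change -0.65, 95% interval -1.35 to 0.04), and at 2.64 to 5.78 CPM and 3.52 to 8.38 CPM for Fcer1g (-0.39, 95% interval -1.07 to 0.29). Beside them, the dendritic cell markers summed to 16.7 to 31.8 CPM in HP1α WT and 18.1 to 75.5 CPM in HP1γ WT. The median over the tested members was -0.40, beside 0.015 over all genes tested. Groups did not overlap for 1 of 9 members, beside 19.5% of all genes. The NK cell markers summed to 46.4 to 57.3 CPM in HP1α WT and 50.3 to 65.6 CPM in HP1γ WT, and their part in these differences was not tested.

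Whether the knockouts differed in effect was tested in a fit of all 16 samples. Klrk1 had the smallest p among the members, with an effect of HP1α loss higher by 0.65 on the log2 scale than that of HP1γ loss (SE 0.168, 95% interval 0.30 to 1.01). Its adjusted p was 0.271 in edgeR's quasi-likelihood test, and 0 of the 8 tested members passed in edgeR or DESeq2, with 1 (Klrk1) at an unadjusted p under 0.05. The share of the 15776 genes tested that passed was 0.0507% at an adjusted p under 0.05 and 0.0317% with the fold change threshold added. Klrg1 came next at 0.77 (SE 0.429, adjusted p = 0.602 in that test), and Klrb1c, Klrd1 and Fcer1g differed by less than 0.20 in either direction.

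Klra7 rested on few counts. They were 7, 9, 8 and 11 in HP1α KO, 4, 4, 8 and 5 in HP1α WT, 13, 10, 3 and 6.24 in HP1γ KO and 6.18, 23.3, 5 and 1 in HP1γ WT. All groups overlapped. Without the filter, edgeR gave log2 fold changes of 0.55 (SE 0.520, adjusted p = 0.802) in HP1α KO, 0.10 (SE 0.708, adjusted p = 0.978) in HP1γ KO and -0.55 (SE 0.687, adjusted p = 0.674) in HP1α WT against HP1γ WT. A difference between groups was not detectable at this depth. The 11 Klra genes together reached 4.08 to 12.9 CPM per sample, with the highest value in HP1γ WT replicate 2, the same sample in which Klra7 was highest.

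The related genes were examined in lists named by function. Of the 28 other NK receptor genes, 17 were tested in HP1γ KO against WT and 0 passed the adjustment. At an unadjusted p under 0.05, which 11.9% of all genes reached in either direction, 3 were lower. These were Klra9 (log2 fold change -1.24, adjusted p = 0.226), Klra1 (-0.89, adjusted p = 0.304) and Cd160 (-0.50, adjusted p = 0.348), with values from edgeR. Klra9 and Klra1 encode Ly49 receptors, whose genes are close copies so that their counts are uncertain, and Cd160 a receptor for HVEM and class I molecules. The list's median log2 fold change was -0.17. In HP1α KO 18 were tested and 0 had an unadjusted p under 0.05. Between the WT groups 1 of 17 passed, beside 12.8% of all genes tested. This was the activating receptor gene Cd226 (log2 fold change 0.49, adjusted p = 0.0499999 in edgeR), with overlapping groups and a p at the very edge of the threshold.

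Among adaptors and proximal signalling genes, 15 of 16 were tested in each comparison of groups and 0 passed the adjustment in edgeR. At an unadjusted p under 0.05 there were 0 in either knockout, and 4 higher and 1 lower in HP1α WT against HP1γ WT, where 29.9% of all genes reached it. Hcst encodes DAP10, the adaptor through which NKG2D signals in T cells. It was at a mean of 378 TPM, well above the 43.7 TPM of Tyrobp. Hcst was at 57.9, 56.0, 67.3 and 67.1 CPM in HP1γ KO and at 61.2, 68.8, 71.6 and 67.1 CPM in HP1γ WT, and these groups overlapped (log2 fold change -0.10, SE 0.0819, adjusted p = 0.636 in edgeR), while its receptor gene Klrk1 did not. In HP1α KO its log2 fold change was 0.18 (SE 0.0903, adjusted p = 0.946 in edgeR).

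Of 13 ligand genes, 9 were tested. B2m, the light chain of class I molecules, was at 1695 to 1781 CPM in HP1γ KO and 1864 to 2217 CPM in HP1γ WT. These groups did not overlap, beside 7.1% of all genes tested, and the adjusted p was 0.244 in edgeR. B2m was lower in HP1α WT than in HP1γ WT (log2 fold change -0.35, adjusted p = 0.0151 in edgeR). Cdh1, which encodes the KLRG1 ligand E-cadherin, was also lower in HP1α WT (-0.96, adjusted p = 0.0421 in edgeR). Its levels were low and overlapped, at 1.51 to 2.72 CPM in HP1α WT and 2.52 to 5.09 CPM in HP1γ WT. Over all samples Cdh1 was highest in HP1γ KO replicate 4 (13.4 CPM), where the dendritic cell markers summed to 150.1 CPM. The part of these cells was not tested. B2m and Cdh1 were the 2 ligand genes that passed between the WT groups, beside 12.8% of all genes tested. Clec2i, which encodes a C-type lectin of the NK gene complex, had a log2 fold change of 0.27 in HP1γ KO (adjusted p = 0.354 in edgeR). H2-T23, which encodes Qa-1, the ligand of CD94 and NKG2A, had log2 fold changes of -0.16 in HP1γ KO and 0.08 in HP1α KO, with adjusted p of 0.403 and 0.946 in edgeR.

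The list of innate-like T cell regulators held 20 genes, all tested. In HP1γ KO 0 passed the adjustment. At an unadjusted p under 0.05, which 11.9% of all genes reached in either direction, 3 were lower. Id2, a regulator of NK and NKT cells, had a log2 fold change of -0.33 (adjusted p = 0.251). It was at 198 to 211 CPM in KO and 221 to 306 CPM in WT. These groups did not overlap, beside 7.1% of all genes tested. Eomes, a T-box factor of NK and memory T cells, had -0.57 (adjusted p = 0.332) and Cxcr6, a homing receptor abundant on NKT cells, -0.50 (adjusted p = 0.362), all from edgeR. Between the WT groups 3 passed, beside 12.8% of all genes tested. Over the function and marker lists together, 7 of 113 tested genes passed there. Eomes (-0.68, adjusted p = 0.00960) and Nfil3 (-0.93, adjusted p = 0.0104) were lower in HP1α WT, and Zbtb7b, the gene of the CD4 lineage factor ThPOK, was higher (0.50, adjusted p = 0.0468), again by edgeR. None of the 20 had an unadjusted p under 0.05 in HP1α KO.

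T cell receptor segments used by innate-like T cells were the fifth list, with 9 of 12 genes in the tables and 6 tested. Trav11 encodes the variable segment of the invariant NKT receptor α chain. It was at 10.6, 15.2, 10.6 and 14.4 CPM in HP1γ KO and at 15.3, 21.5, 14.9 and 19.9 CPM in HP1γ WT. The groups overlapped slightly, and the log2 fold change was -0.48 (SE 0.164, adjusted p = 0.336 in edgeR). In HP1α KO against WT it was 0.05 (SE 0.129, adjusted p = 0.978 in edgeR). There 1 segment of the list, Trbv1, had an unadjusted p under 0.05 (log2 fold change 0.23, adjusted p = 0.946 in edgeR), beside 4.27% of all genes. No segment passed the adjustment in any comparison. Traj18, a joining segment on the list, was at 0 in 10 of the 16 samples and reached at most 0.0772 CPM. Traj33, another joining segment, was at 0 in 15 samples and Trav11d in all 16. With counts this low, these segments say nothing about the number of innate-like T cells.

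Covariation between members was measured over the 16 samples as the correlation of log2 CPM after each value was taken relative to its group mean, so that differences between groups do not enter. Of 36 pairs, 31 correlations were positive, with a median Pearson's r of 0.38 and a range from -0.39 to 0.86. A single pair, 1 of 36, passed the adjustment over the 36 pairs. Tyrobp and Fcer1g had r = 0.858 (exact permutation within groups, two-sided, p = 9.95e-05, adjusted p = 0.00358) and Spearman's rho = 0.812 (exact permutation p = 0.000552, adjusted p = 0.0199). Without the 2 samples farthest from the median of Tyrobp r was 0.826, and it was 0.899 within the HP1α line and 0.922 within the HP1γ line. With each sample left out in turn, r stayed between 0.824 and 0.900.

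The next pairs joined the receptors of the NK gene complex and missed the adjusted threshold. Klrd1 and Klrb1c had r = 0.761 and Klrd1 and Klrc1, whose products pair on the cell surface, had r = 0.745 (adjusted p = 0.0622 for both by exact permutation). Spearman's rho was 0.756 and 0.765 for these pairs, and r without the 2 farthest samples 0.794 and 0.675. Klrk1, the gene between Klrd1 and Klrc1 among the members, had r = 0.46 with Klrd1 and 0.34 with Klrc1. The lowest value was that of Klrk1 and Klrg1 (r = -0.39). In all, 8 of the 36 pairs had an unadjusted p under 0.05 by exact permutation. The number of pairs past the adjusted threshold ranged from 1 to 4 with each sample left out and was highest without HP1γ KO replicate 4. It was 3 without HP1α WT replicate 2 or HP1γ WT replicate 1, and 2 without HP1γ KO replicate 1 or HP1γ WT replicate 3 or 4.

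**Figure D3:**
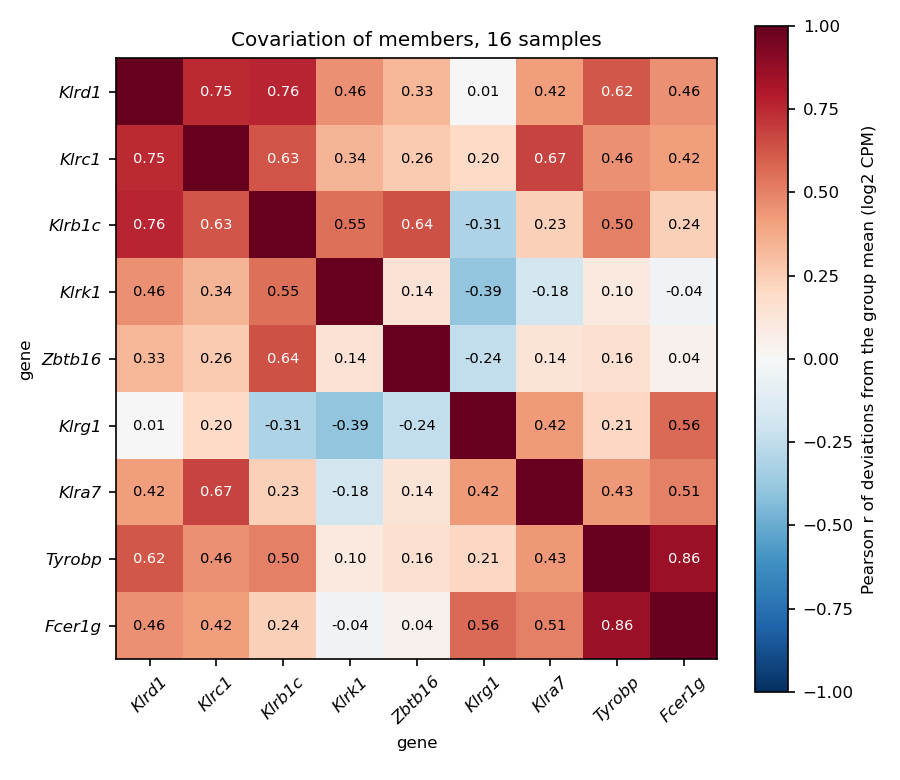
Pearson's r between members over 16 samples, computed on log2 CPM relative to the group mean, with the colour scale from -1 to 1. The pair Tyrobp and Fcer1g (0.86) is the highest, and Klrd1, Klrc1 and Klrb1c have r between 0.63 and 0.76 with each other.

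Tyrobp (ENSMUSG00000030579) lies on chromosome 7 on the plus strand, and Fcer1g (ENSMUSG00000058715) on chromosome 1 at 171057141 to 171062219 on the minus strand. The promoter of Fcer1g is shown as that of a gene of the pair past the threshold. The 250 bases before its start site in GRCm39, at chr1:171062220-171062469, are given 5′ to 3′ on the gene's strand. Capitals mark the letters GAGGAA on either strand, the core of sites for PU.1, a factor of myeloid cells.
Fcer1g: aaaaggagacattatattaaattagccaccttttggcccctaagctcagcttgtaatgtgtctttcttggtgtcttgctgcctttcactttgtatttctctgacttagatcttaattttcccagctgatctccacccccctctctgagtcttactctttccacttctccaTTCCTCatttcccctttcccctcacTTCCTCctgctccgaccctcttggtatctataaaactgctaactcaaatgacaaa
These letters began at 80 and 55 bases before the start, and both matches read on the opposite strand. They occurred in 23.1% of 21603 such promoters of protein-coding genes on either strand, and the promoters of the receptor genes Klrb1c and Klrd1 held 2 and 1, so that a match is not particular to the adaptors, and a match describes the letters only.

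Members were also set against the summed CPM of 9 lists of cell type markers, in the same way. Of 81 pairs, 8 passed the adjusted threshold, all with a positive r, and 6 of them are given here. The marker sums were chosen after seeing the data, and the adjusted p does not cover that choice. Tyrobp varied with the dendritic cell markers (r = 0.946, adjusted p = 0.00195, exact permutation) and with the markers of monocytes and macrophages (r = 0.696, adjusted p = 0.0234, exact permutation). Fcer1g varied with both lists as well (r = 0.850, adjusted p = 0.00317, and r = 0.854, adjusted p = 0.0234, exact permutation). For Tyrobp and the dendritic cell markers rho was 0.903 (adjusted p = 0.0134, exact permutation), and r was 0.883 without the 2 farthest samples, 0.896 in the HP1α line and 0.966 in the HP1γ line. The markers of this sum did not all move alike. In HP1γ KO replicate 4, where Tyrobp was highest, Siglech gave 110 of 150.1 CPM. Flt3 (19.0 CPM) and Itgax (19.5 CPM) were also highest of their group there, but Zbtb46 (1.21 CPM) and Xcr1 (0.180 CPM) were not. Klrg1 varied with neutrophil markers (r = 0.758, adjusted p = 0.0188, exact permutation). Their sum lay near the floor in part of the samples. It ran from 0.125 CPM in HP1α WT replicate 1 to 36.2 CPM in HP1γ KO replicate 1, with group medians of 1.22 to 4.01 CPM. Klra7 varied with the neutrophil markers too (r = 0.808, adjusted p = 0.0129, exact permutation), but rests on few counts. For Klrk1, Klrc1, Klrd1, Klrb1c and Zbtb16 no pair passed. Klrd1 with the dendritic cell markers had r = 0.695 (adjusted p = 0.0672, exact permutation), with 0.944 without the 2 farthest samples, 0.133 in the HP1α line and 0.945 in the HP1γ line. The number of pairs past the threshold was 3 without HP1γ KO replicate 1 and 4 without HP1γ WT replicate 2. The mast cell and basophil markers summed to at most 0.424 CPM, and Fcer1a was at 0 in 13 samples. Whether RNA of dendritic cells or monocytes accounts for the shared variation of Tyrobp and Fcer1g was not tested.

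The genes most like each member over all 15776 genes, by the same r over 16 samples, differed between members. For Zbtb16 they were Zcchc18 (0.89), Trav11 (0.89) and Cxcr6 (0.85), of which Trav11 and Cxcr6 stood on the lists of innate-like T cell genes. For Tyrobp they were Pld4 (0.97), Ly6d (0.95) and Carmil1 (0.95), and for Fcer1g Siglecg (0.96), Pirb (0.95) and H2-DMb1 (0.94). For Klrb1c they were the γδ T cell receptor segment Trgv1 (0.92), an unnamed gene and Prkcb (0.88). The genes most like Klrk1 had lower values, B3galnt2 (0.82), Zfp420 (0.81) and Gm46519 (0.80). Klrd1 was closest to Lacc1 (0.90), Klrc1 to Slc28a2b (0.89) and Klrg1 to Eif4e2 (0.92). These r values were the highest of many and are a description.

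**Figure D4:**
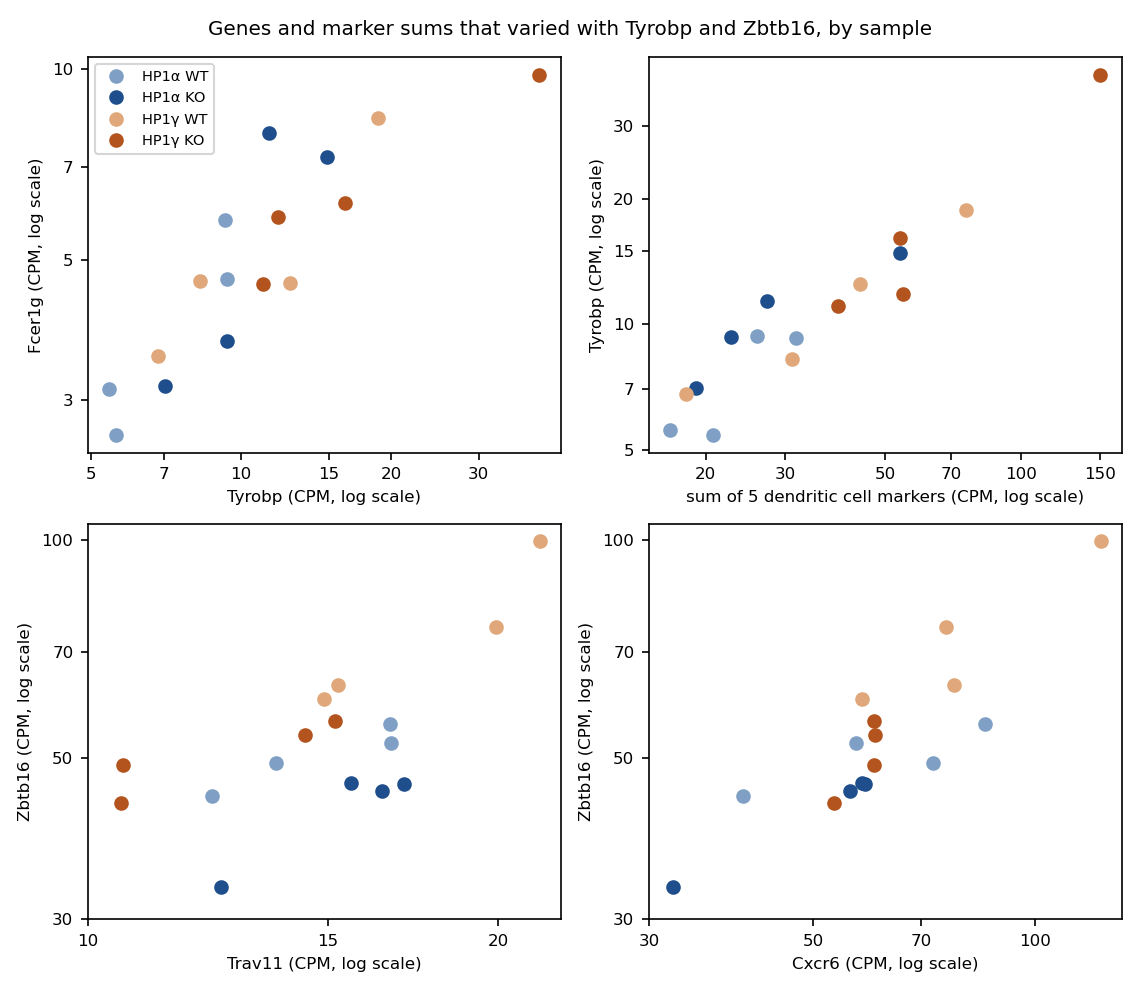
Each point is 1 of 16 samples, with CPM on log axes, coloured by group. Tyrobp is plotted against Fcer1g and against the sum of 5 dendritic cell markers, with HP1γ KO replicate 4 at the top right (39.8 and 150.1 CPM), and Zbtb16 against Trav11 and Cxcr6, with HP1γ WT replicate 2 at the top right (99.7 CPM of Zbtb16).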

How the data were processed

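Bulk RNA-Seq of 16 samples was grouped by the submitters' titles and genotype labels. The treatment label, about cell transfer, was not used, since the sorted memory cells were not described as transferred. The authors trimmed the reads (pairs of 150 bp, stranded mRNA libraries), used STAR for alignment to GRCm39 and Salmon for quantification, as the methods and the submitters' processing notes state. They deposited estimated counts per gene, without normalization (11.6% of the values are not whole), and TPM, which keep no depth. The total per sample, 26694045 to 40199637 counts, sets the precision, and Klra7 was limited by it.

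Counts were rounded to whole numbers and tested with edgeR 4.0.16 in R 4.3.3 (TMM, filterByExpr with a minimum count of 10, quasi-likelihood test, Benjamini-Hochberg adjustment over all genes tested), each comparison on its 8 samples and the difference between knockout effects on all 16. Intervals of 95% come from that fit. Correlations used log2 CPM with a prior count of 2. The genes named are all 9 members, the list genes called or otherwise up to 3 with the smallest p, and the 3 of highest r for each member. Members and lists were chosen with earlier results of these data known. Marker sums and the sequence motif were chosen after seeing the data. Alternatives were DESeq2 1.42.0, RLE size factors, no filter, a minimum of 10 counts per sample, one fit of all 16 samples, a robust fit, a replicate block, limma 3.58.1 on log2(TPM + 1) and log2(TPM + 0.1), counts summed over the Klra and Klrc families, adjusted p alone, and each sample left out. Tests were checked on simulated counts with 200 genes changed by 2 on the log2 scale, more than any member differed. Differences of the size seen in the members were not simulated, so the check does not cover them. In a chi-square comparison of counts, each of 24 replicate pairs exceeded sampling noise (at least 10.4 per gene). Shared sequence was found with blastn 2.17.0. Gene positions and the promoter are from a GENCODE annotation of GRCm39, not the authors' Ensembl one. Some values and a sequence are not reported here.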

Additional observations from a re-analysis of the deposited data

Results flagged for a closer look

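Zbtb16 in HP1α KO replicate 3, at 33.2 CPM, stood apart from the other 3 samples of its group, which lay between 45.1 and 46.3 CPM. It was 1 of 36 groups of 4 samples looked at, and chance alone sets such a sample apart in about 1 in 20 groups.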

How the results depend on the processing

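No member met both thresholds of a DEG in any comparison under any tool, filter, normalization or omission of a sample. With adjusted p alone, 1 member passed in HP1γ KO against WT (Klrk1) and 1 between the WT groups (Zbtb16). Of 664 alternative log2 fold changes of 32 member values, 33 changed sign, 25 of them with a sample left out, and the cause was not tested. Those that changed sign with a sample left out ranged, in HP1α KO against WT, from -0.059 to 0.43 for Klrg1, from -0.030 to 0.15 for Klrk1 and from -0.17 to 0.052 for Klrc1, in HP1γ KO against WT from -0.13 to 0.11 for Klrb1c, between the WT groups from -0.043 to 0.22 for Klrb1c, and in the difference between knockout effects from -0.13 to 0.17 for Klrd1, from -0.19 to 0.39 for Fcer1g and from -0.57 to 0.36 for Tyrobp. On log2(TPM + 1) and log2(TPM + 0.1), Klrc1 in HP1α KO was at 0.0493 and 0.0515, Klrb1c in HP1γ KO at 0.0167 and 0.0179 and the difference for Fcer1g at -0.0183 and -0.0167. Without a filter on low counts the difference for Klrd1 was 0.00696.

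In TPM 1 member, in place of 2, did not overlap between HP1γ KO and WT, since Zbtb16 overlapped. With a sample left out, 0 to 2 members did not overlap in the HP1α line, 2 to 3 in the HP1γ line and 1 to 2 between the WT groups. The number of member pairs past the threshold was 3 without centring on group means, 0 in the HP1α line alone, 0 in the HP1γ line alone, 4 without the 2 farthest samples and 1 to 4 with a sample left out. The number of pairs of members and marker sums was 0 in the HP1α line alone, 0 in the HP1γ line alone, 5 without the 2 farthest samples and 3 to 11 with a sample left out. Within 1 line the smallest p is 0.00174, which for a single pair of 36 gives an adjusted p of 0.0625, so those counts say nothing about stability.

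Deviations of samples that bore the same number were not shared in every pair (correlations of 0.0961 to 0.243 in the HP1α line, 0.00456 to 0.155 in the HP1γ line and -0.207 to -0.0645 between the WT groups), and the number is taken as a name only. The sample of the other group that correlated best bore the same number for 6 of 8 samples in the HP1α line, 2 of 8 in the HP1γ line and 0 of 8 between the WT groups. With the replicate block, Klrk1 in HP1γ KO had a log2 fold change of -0.58 and an adjusted p of 0.0739, the difference for Klrd1 was 0.00818, 0 member pairs and 0 pairs with marker sums passed, and the number of DEG among all genes was 38 in place of 35 in the HP1γ line and 125 in place of 282 between the WT groups. The number of DEG among all genes was 97 by DESeq2, 18 with at least 10 counts per sample and 18 by limma on log2(TPM + 1) in the HP1γ line, 102 by that limma fit between the WT groups, and 2 by DESeq2 and 1 by limma, by a robust fit or without a filter in the HP1α line, in place of 0. For the difference between knockout effects it was 37 by DESeq2, 11 without a filter, 8 by limma on log2(TPM + 1), 3 with at least 10 counts per sample and 10 with the block, in place of 5.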
